A study of Mus musculus with 4 samples.

Results

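The 83 genes described here encode cytosolic ribosomal proteins, and their share of the transcripts of each cell type was compared across 4 mouse spleen libraries. They are all genes whose symbol is Rps or Rpl followed by a number (with an optional letter and digit), plus Rplp0, Rplp1, Rplp2 and Rpsa, among 31053 genes in the deposited matrices. The 83 comprise 32 named for the small subunit and 51 named for the large subunit. Ribosomal proteins that carry other names or suffixes, such as Fau, Rack1 and Rpl36al, fall outside this rule and are given apart.

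All mice were C57BL/6. Wild type (WT) mice, labelled miR155 fl/fl in the series design, were studied young (an age in months was not given in the sources used here) and aged. Aged mice were 15 months old and were of 3 genotypes: WT, a whole-body miR-146a knockout (KO), and the same knockout with miR-155 removed conditionally in T cells (double KO; the Cre driver was not given in the sources used here). Each group was 1 library made from a pool of several spleens, sorted for live (DAPI-) CD45+ cells of low forward and side scatter, a gate that favours lymphocytes over granulocytes. The groups thus have no replicates, and no test between groups was possible. MiR-146a is known as a brake on immune activation and miR-155 as a driver of it. The host transcript Mir155hg had 76, 102, 138 and 142 UMIs in the annotated cells of the young WT, aged WT, KO and double KO libraries, which does not check either deletion, because a tag at 1 end of the transcript need not lie in the deleted part.

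Each ribosome is built from a small and a large subunit, and nearly every ribosomal protein is present once per particle. The messenger RNAs of these proteins are among the most abundant in any cell and start with a run of pyrimidines (the 5' terminal oligopyrimidine tract, TOP) through which the mTOR pathway controls their translation. Resting naive T cells are known to hold ribosomal protein mRNAs that are translated after activation, and activated lymphocytes raise ribosome synthesis. Maturing granulocytes are known to shut down much of theirs.

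A UMI (unique molecular identifier) marks 1 captured transcript. The authors' cell type names were available for 4832 to 6821 cells per library, with 14760904 to 18272108 UMIs and a median of 2054 to 2649.5 UMIs per cell. Lineage markers fitted the T and B names: summed T markers were 4989 to 9333 CPM (UMIs per 1000000 UMIs) in the named T types against 43.8 to 207 CPM in Fo B, MZ B, Trans B and GC Centroblast cells. The GC Centrocyte cells carried T markers at 2104 and 2075 CPM in the WT libraries against 441 and 568 CPM in the knockout libraries. Summed germinal centre markers were 509 to 923 CPM in GC Centrocyte cells but 16.9 to 69.2 CPM in GC Centroblast cells, below those of naive CD4 cells (37.8 to 89.5 CPM) in 3 of 4 libraries, so these markers do not bear out the second name, which is used here only as deposited. Granulocyte transcripts were found in cells of other types, at 10.3 to 26.1 CPM in naive and memory CD4, Fo B and MZ B cells of the WT libraries and at 780 to 1212 CPM in those of the knockout libraries. In all, 416 barcodes occurred in more than 1 library, and 726 of 24143 annotated cells carried such a barcode.

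The group gave 21898192 UMIs over all barcodes, and 82 of its 83 genes had at least 1. The 78 genes with the most UMIs ranged from 84774 for Rpl7a to 736828 for Rps27. By UMI count, which is not scaled to transcript length, the leading genes included Rps27 (3.37% of the ribosomal protein UMIs), Rpl13 (2.87%), Rps19 (2.67%) and Rps18 (2.16%). The 10 leading genes together held only 23.75%, so the group's share of a cell's transcripts does not rest on a few genes. The genes outside the 78 were the variants Rps27l (17740 UMIs), Rpl7l1 (5614), Rpl39l (93), Rpl3l (84) and Rpl10l, which had 0.

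Runs of pyrimidines at the start were more frequent in this group than among all genes. RefSeq (GRCm38.p6) lists 75 transcription starts for 63 of the 83 genes. A run of at least 8 pyrimidines (C or T, on the transcript's strand) lay within 20 bases of the start in 41.3% of them, against 16.1% of the 32851 starts of all 27025 genes in the same table. The letters CTTTC on the transcript's strand were present in the same 40 bases at 25.3% of the group's starts and 5.50% of all starts; counted on either strand (CTTTC or GAAAG), 29.3% and 10.2%. A match is a description of these letters only. The windows below hold the 15 bases before the RefSeq start and the 15 from the start on, 5' to 3' on the transcript's strand, with the longest run of pyrimidines in capitals. Rps27 and Rps27l are shown because their balance differed between cell types, Rpl13a and Rpl27 because they stood apart in the double KO library, Rpl35 because it was among the genes lower in KO T cells and has the longest run of those shown, and Rpl3l because it was found mainly in 1 monocyte type.
Rps27 (chr3:90213634-90213663, minus strand): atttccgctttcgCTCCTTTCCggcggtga
Rps27l (chr9:66946071-66946100, plus strand): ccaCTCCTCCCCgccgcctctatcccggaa
Rpl13a (chr7:45128731-45128760, minus strand): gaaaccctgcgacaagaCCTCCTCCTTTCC
Rpl27 (chr11:101442230-101442259, plus strand): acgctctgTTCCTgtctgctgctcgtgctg
Rpl35 (chr2:39005117-39005146, minus strand): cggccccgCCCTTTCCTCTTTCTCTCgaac
Rpl3l (chr17:24727811-24727840, plus strand): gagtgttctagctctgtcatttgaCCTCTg
The runs were 9 bases in Rps27 and Rps27l, 13 in Rpl13a, 5 in Rpl27 and Rpl3l and 18 in Rpl35, so Rpl13a and Rpl27, which were both low in the double KO library, differ in this feature. The RefSeq start of Rpl35 lies 493 bases from the gene start in the GENCODE annotation, and those of the other 5 lie at most 53 bases from it.

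Naive CD8 T cells devoted the largest share of their transcripts to ribosomal proteins in every library. Their share was 40.7%, 41.8%, 41.0% and 41.7% in the young WT, aged WT, KO and double KO libraries. At the other end, granulocytes gave 5.23% in the KO library (exact Clopper-Pearson 95% interval 5.2 to 5.27) and 5.23% in the double KO library (5.2 to 5.26). Such intervals hold the error of counting alone and say nothing of the spread between mice or preparations. Other types lay between these: 30.3% to 38.5% in naive CD4, 22.7% to 31.3% in memory CD4, 31.5% to 38.8% in memory CD8, 28.2% to 33.0% in Fo B (follicular), 30.2% to 34.7% in MZ B (marginal zone) and 30.4% to 31.9% in GC Centroblast cells. Trans B (transitional) cells, GC Centrocyte cells and NK cells gave 21.5% to 22.2%, 23.8% to 27.2% and 20.7% to 28.6%.

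**Figure D1:**
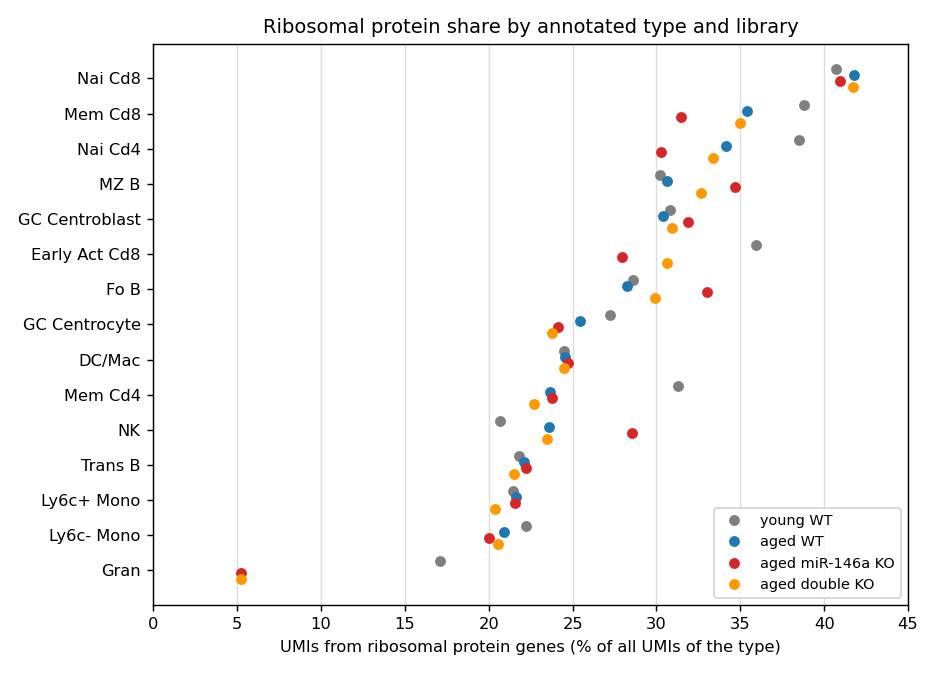
Share of UMIs from the 83 ribosomal protein genes (horizontal axis, % of all UMIs of the type) in each annotated type with at least 20 cells; each point is 1 library and the types are ordered by their median. Naive CD8 cells lie at 40.7% to 41.8% in all 4 libraries, and granulocytes of both knockout libraries lie at 5.23%.

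Over all cells of a type, several orders of types were alike in all 4 libraries. The share was higher in naive than in memory CD4 cells by 6.51 to 10.7 percentage points, and higher in naive than in memory CD8 cells by 1.90 to 9.53 points. CD8 cells stood above CD4 cells among naive (2.18 to 10.7 points) and memory cells (7.48 to 12.2 points). Among B cells, MZ B stood above Fo B by 1.62 to 2.74 points, Fo B above Trans B by 6.15 to 10.8 points, and GC Centroblast above GC Centrocyte by 3.55 to 7.76 points. DC/Mac (dendritic cell or macrophage) stood above Ly6c+ Mono by 2.98 to 4.10 points. Ly6c+ and Ly6c- Mono had no fixed order, with differences from -0.80 to 1.56 points. The type names were themselves made from the expression of these cells, so the orders are a description and were not tested. The granulocytes of the young WT library gave 17.1%, but these 37 cells, from a gate that favours lymphocytes, had a median of 743 UMIs and summed granulocyte markers of 74375 CPM, against 464501 and 465779 CPM in the knockout libraries; the aged WT library had only 16 granulocytes.

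The share moved with the number of UMIs captured from a cell. Among aged WT Fo B cells it was 27.0% at 1000 to 1999 UMIs, 31.2% at 2000 to 2999 and 31.6% at 3000 to 4999 UMIs. Among young WT naive CD4 cells it was 34.6%, 39.1% and 39.7% in the same ranges. At matched depth, over the bins and libraries with at least 20 cells of both types, naive CD4 cells stood above memory CD4 cells in 13 of 13, naive CD8 above naive CD4 cells in 9 of 9 and naive above memory CD8 cells in 10 of 11. Memory CD8 stood above memory CD4 cells in 10 of 12; in young WT the order turned, with 22.6% against 28.7% at 1000 to 1999 UMIs and 31.1% against 31.9% at 2000 to 2999 UMIs. The order of MZ B and Fo B cells turned as well: MZ B was below Fo B in 9 of 11, and in all 4 libraries at 2000 to 2999 UMIs (29.0% against 30.2% in young WT). Values at matched depth are therefore given beside several of the comparisons below, though not for every type.

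**Figure D2:**
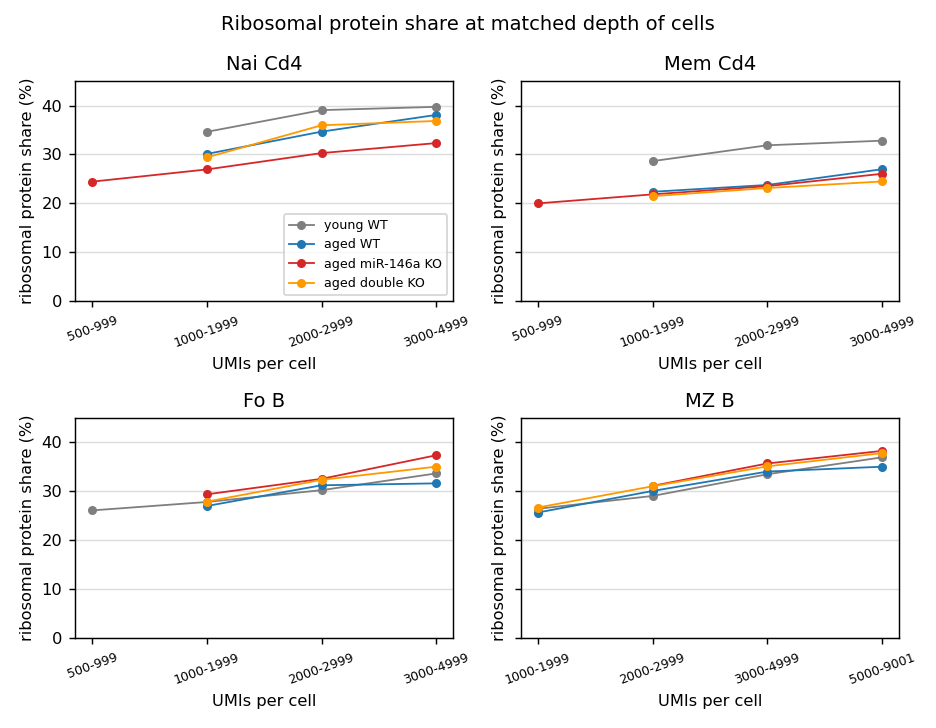
Ribosomal protein share (vertical axis, %) of cells binned by UMIs per cell (horizontal axis) in 4 types; each line is 1 library, and bins with under 20 cells are left out. The share climbs with depth in these types, and young WT memory CD4 cells lie above the 3 aged libraries in every bin where they are shown, at 31.9% against 23.2% to 23.8% at 2000 to 2999 UMIs.

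With age, the ribosomal protein share was lower in T cells and nearly level in B cells. Over all T types it was 38.4% in young WT and 33.8% in aged WT, a log2 ratio of -0.19 (Katz 95% interval -0.19 to -0.18). Per cell, ribosomal protein UMIs were 1057 and 878 while the other UMIs were 1694 and 1722; UMIs per cell reflect capture as well as RNA content, and these cannot be told apart. Over all B types the share was 28.7% and 28.8%. The difference among T cells was not spread evenly. In memory CD4 cells the share was 31.3% in young WT and 23.7% in aged WT (log2 ratio -0.40), the lowest of the 13 types (T/B dbl left out) with at least 20 cells in both libraries. In naive CD4 cells it was 38.5% and 34.2% (-0.17), in memory CD8 cells 38.8% and 35.4% (-0.13), and in naive CD8 cells 40.7% and 41.8%, which is higher with age. At 1000 to 1999 UMIs the memory CD4 share was 28.7% in young WT and 22.4% in aged WT, so the difference remained at matched depth. In memory CD8 cells it did not hold throughout, with 22.6% in young and 25.2% in aged WT at 1000 to 1999 UMIs, 31.1% and 30.8% at 2000 to 2999, and 41.3% and 38.9% at 3000 to 4999. Naive CD8 cells gave 39.1% and 38.0% at 2000 to 2999 and 42.4% and 42.8% at 3000 to 4999 UMIs. For all T cells of 1000 to 3000 UMIs the log2 ratio was -0.35, further from 0 than over all T cells. Summed naive T markers were 1168 and 582 CPM in memory CD4 and 2572 and 1782 CPM in naive CD4 cells of the young and aged WT libraries. Summed memory markers were 803 and 1547 CPM in the former and 172 and 673 CPM in the latter. The part of these shifts within the named types in the ribosomal protein share was not tested.

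Nearly all genes of the group took part in the difference with age in T cells, each by a small amount. A gene was called lower where its ratio of CPM was at most 0.8, or higher where it was at least 25% above 1, and its 95% counting interval (conditional binomial) excluded 1, among genes with at least 50 UMIs over both libraries; 80 of the 83 genes had that many. In T cells 4 of 80 were called lower and 0 higher in aged WT, against a background of 4.33% of all genes called lower and 16.1% called higher (3.38% lower among genes of at least 100 CPM in both libraries), so the calls alone do not set the group apart. The interval lay wholly below 1 for 77 of the 79 ribosomal protein genes of at least 100 CPM, against 22.3% of all such genes. Intervals narrow as counts rise, and the genes compared were not matched for count. Such contrasts of intervals, here and below, therefore do not compare sizes. The median log2 ratio of the 80 ribosomal protein genes tested was -0.17, against 0.09 over all genes tested. With TMM scaling, which moved all T cell log2 ratios by -0.13, 29 were called lower against 8.94% of all genes, and among cells of 1000 to 3000 UMIs 41 were against 5.28%. The shares of all genes sum to a whole, so a lower share of this large group raises the ratios of other genes.

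The genes called lower in aged T cells included Rps26, Rpl31 and Rps29. Rps26, a small-subunit protein whose gene is mutated in some Diamond-Blackfan anaemia, was at 2532 CPM in T cells of the young WT library, 1929 of aged WT, 1771 of the KO and 1858 of the double KO. Rpl31 of the large subunit was at 2688, 2026, 1615 and 1844 CPM. Rps29 was at 8425, 6602, 5737 and 6320 CPM. Each was highest in young WT and lowest in KO T cells. In B cells with age, 0 of 80 genes were called in either direction, against 3.93% of all genes called higher and 4.06% called lower; their ratios ranged from a log2 value of -0.10 (Rps26) to 0.15 (Rpl13a). In memory CD4 cells 57 of 80 were called lower and 0 higher, against a background of 6.59% lower (11.9% among genes of at least 100 CPM), and the interval lay below 1 for 77 of 79 against 15.8%. The lowest ratios there were those of Rpl10a (0.635), Rpl32 (0.638) and Rpl31 (0.642), named after their values were seen.

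In the KO library against aged WT, the share was lower in T cells and higher in B cells. T cells gave 29.3% against 33.8% (log2 ratio -0.20), and B cells 31.5% against 28.8% (log2 ratio 0.13). Among T types the share was 30.3% against 34.2% in naive CD4 and 31.5% against 35.4% in memory CD8 cells, both with a log2 ratio of -0.17. Memory CD4 cells gave 23.8% against 23.7%, and naive CD8 cells 41.0% against 41.8%. Giving each T type its aged WT weight in both libraries, with Early Act Cd8 left out (14 aged WT cells), changed the log2 ratio to -0.10. At matched depth, memory CD8 cells gave 25.1% in the KO and 25.2% in the aged WT library at 1000 to 1999 UMIs. They gave 28.9% and 30.8% at 2000 to 2999 and 32.7% and 38.9% at 3000 to 4999 UMIs. At 2000 to 2999 UMIs naive CD4 cells gave 30.3% in the KO and 34.7% in the aged WT library. Summed naive markers in these cells were 901 and 1782 CPM and summed memory markers 1927 and 673 CPM; in memory CD8 cells the naive markers were 430 and 739 CPM. In naive CD8 cells, where the share differed little, memory markers were 9042 CPM in 93 KO cells against 598 CPM in 261 aged WT cells. The part of these markers and of the granulocyte transcripts in the result was not tested.

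Among B types the KO library was higher in Fo B (33.0% against 28.2%, log2 ratio 0.23), MZ B (34.7% against 30.6%, 0.18) and GC Centroblast cells (31.9% against 30.4%, 0.07). In Trans B cells it gave 22.2% against 22.1%, and in GC Centrocyte cells 24.1% against 25.4%. The KO Fo B cells also had more UMIs, a median of 2296 against 1678, with means of 786 ribosomal protein and 1596 other UMIs per cell against 500 and 1270. At matched depth the shares were 29.4% against 27.0% at 1000 to 1999 UMIs, 32.5% against 31.2% at 2000 to 2999 and 37.3% against 31.6% at 3000 to 4999 UMIs (145 and 51 cells), so the KO was higher in each bin, by less than over all Fo B cells in the lower bins and by more in the highest. MZ B cells had medians of 3198 and 2314 UMIs and gave 31.1% against 30.1% at 2000 to 2999 and 35.7% against 34.0% at 3000 to 4999 UMIs. NK cells, with 49 KO and 97 aged WT cells, gave 28.6% against 23.6% with medians of 3853 and 2301 UMIs. In the myeloid cells the class gave 14.9% in the KO and 21.7% in the aged WT library. There 75 of 80 genes were called lower, against 30.1% of all genes. Granulocytes were 293 of the 715 KO myeloid cells, against 16 of 191 in aged WT. With granulocytes left out and the other myeloid types at their aged WT weights, the log2 ratio was -0.019 in place of -0.54. Within types the granulocytes gave 5.23% against 7.46% (16 aged WT cells), and the other myeloid shares were close: 21.5% and 21.6% in Ly6c+ Mono, 19.99% and 20.9% in Ly6c- Mono and 24.7% and 24.6% in DC/Mac cells.

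In KO T cells 8 of 80 genes were called lower and 0 higher than in aged WT, against 5.86% and 12.0% of all genes (3.44% lower at 100 CPM or more). Intervals below 1 were found for 72 of the 79 genes of at least 100 CPM, against 19.8% of all such genes. Rps19, whose gene is the one most often mutated in Diamond-Blackfan anaemia, was at 10559 CPM in the young WT library, 8713 in the aged WT, 6476 in the KO and 7925 in the double KO library, a KO ratio of 0.743 (0.732 to 0.755). Rps6, the ribosomal protein phosphorylated by the S6 kinases, was at 6607, 5991, 4787 and 5719 CPM. Rps7, another small-subunit protein, was at 6525, 5335, 4225 and 4792 CPM. Rps20 was at 3928, 3233, 2534 and 3015 CPM. In each of these 4 the KO T cells were lowest and the young WT T cells highest. Rpl31, Rpl35 and Rpl22l1 were also called lower. With TMM scaling, 24 of 80 were called lower, against 8.06% of all genes. Weighted by the aged WT mix of types 1 was, against 5.87%, and among cells of 1000 to 3000 UMIs 2 were, against 5.23%.

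In KO B cells 0 of 80 genes were called in either direction, against 7.22% of all genes called higher (2.85% at 100 CPM or more) and 7.91% called lower, although the ratio was above 1 for all 80 that were tested. The interval lay wholly above 1 for 76 of 79, against 26.6% of all genes of at least 100 CPM. The median log2 ratio was 0.12 against -0.05 over all genes tested. In Fo B cells 10 of 80 were called higher, against 2.73% (2.67% at 100 CPM or more), and the interval lay above 1 for 77 of 79 against 15.6%. They were Rpl39, Rps12, Rplp1, Rps21, Rps27, Rps28, Rpl38, Rps26, Rplp0 and Rpl37, with ratios of up to 1.34. In MZ B cells 3 were called higher, Rps27 and Rpl39 among them, against 2.66%.

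**Figure D3:**
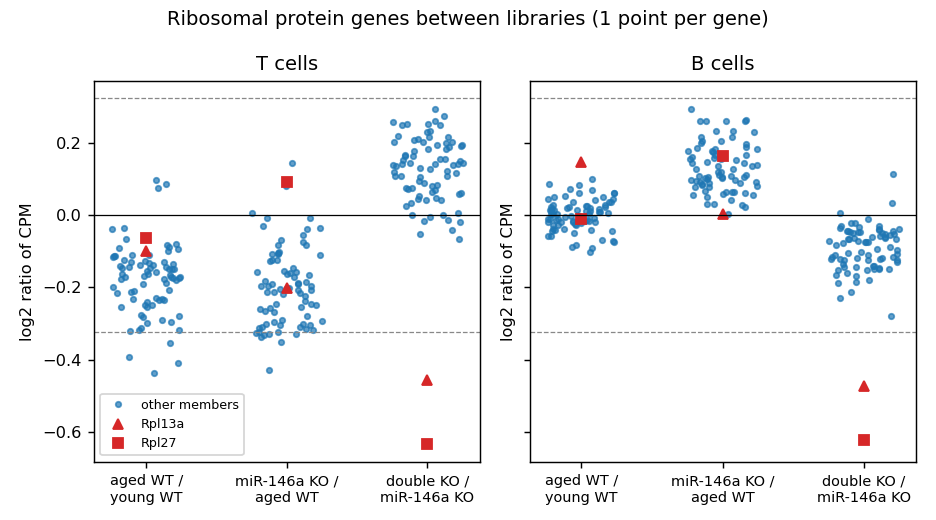
Log2 ratio of CPM between 2 libraries (vertical axis) for each ribosomal protein gene except Rpl10l, Rpl39l and Rpl3l (1 point per gene), in T cells (left) and B cells (right); dashed lines mark the size needed for a call and red symbols mark Rpl13a and Rpl27. In the double KO against KO comparison both red symbols lie below all other genes, at -0.46 and -0.63 in T cells and at -0.47 and -0.62 in B cells.

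In the double KO against the KO library, both directions were the opposite. T cells gave 32.1% against 29.3% (log2 ratio 0.13) and B cells 29.5% against 31.5% (log2 ratio -0.09). These comparisons share the KO library with the ones above, so a high or low value of that library would move both. Set directly against aged WT, the double KO gave a log2 ratio of -0.07 for T and of 0.03 for B cells. Naive CD4 cells gave 33.4% against 30.3% in the KO, memory CD8 cells 35.0% against 31.5%, memory CD4 cells 22.7% against 23.8% and naive CD8 cells 41.7% against 41.0%. Naive markers in naive CD4 cells were 1618 against 901 CPM and memory markers 965 against 1927 CPM. Weighted by the aged WT mix of types, the T cell log2 ratio was 0.08. Fo B cells gave 29.9% against 33.0% with medians of 1758 and 2296 UMIs, with 27.9% against 29.4% at 1000 to 1999 UMIs, 32.3% against 32.5% at 2000 to 2999 and 35.0% against 37.3% at 3000 to 4999; NK cells gave 23.5% against 28.6% with medians of 2610 and 3853 UMIs. In T cells the interval was wholly above 1 for 64 of 79 genes, against 16.9% of all genes of at least 100 CPM, and in B cells wholly below 1 for 75 of 79, against 14.9%.

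Rpl13a and Rpl27 stood apart from the rest of the group in the double KO library. They are among the 8 genes of the group that have a named pseudogene among the measured genes. How reads shared with near-copies were counted was not given, so the values of both are uncertain where such reads occur. Rpl13a and Rpl27 were the only ones of 80 genes called lower against the KO, both in T cells (background 8.29% lower and 3.86% higher) and in B cells (background 2.45% lower and 3.05% higher), with 0 called higher in either. Rpl13a, a large-subunit protein also known for silencing translation of inflammatory mRNAs outside the ribosome, was at 1744, 1629, 1416 and 1032 CPM in T cells and at 1184, 1310, 1312 and 945 CPM in B cells of the young WT, aged WT, KO and double KO libraries. Rpl27 was at 1921, 1837, 1955 and 1261 CPM in T cells and at 1614, 1602, 1794 and 1167 CPM in B cells. The double KO library was the lowest of the 4 for both genes in both classes. The ratio of double KO to KO was 0.729 (0.702 to 0.757) in T and 0.721 (0.7 to 0.742) in B cells for Rpl13a, and 0.645 (0.624 to 0.667) and 0.650 (0.634 to 0.667) for Rpl27.

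The pattern was found in all 16 annotated types, including B, NK and myeloid cells, where the label does not place the miR-155 deletion. The Rpl13a ratio ranged from 0.608 in NK to 0.856 in granulocytes (median 0.726), with an interval below 1 in 14 types. The Rpl27 ratio ranged from 0.593 in NK to 0.746 in Ly6c- Mono (median 0.662), with an interval below 1 in all 16. Among naive CD4 cells Rpl13a was at a ratio of 0.706 and Rpl27 at 0.691 while the median of the other 78 genes tested was 1.10. In Fo B cells the values were 0.716, 0.637 and 0.906. Of 6431 genes with enough UMIs in the T, B and myeloid classes, 30 (0.466%) were called lower in all 3, and Rpl13a and Rpl27 were 2 of these 30. The same 30 held Rpl36al, the retrogene Rps27rt and the pseudogene Rpl27-ps3. Rpl36al was at 662 CPM in the KO and 474 CPM in the double KO T cells and at 592 and 420 CPM in B cells. The genes within 1 Mb of Rpl27 gave 0 calls among 37 tested in T cells and 0 among 41 in B cells. For Rpl13a, 4 of 48 neighbours were called higher and 2 lower in T cells, and 2 of 57 higher and 1 lower in B cells. Of all genes, 3.86% were called higher and 8.29% lower in T cells, and 3.05% and 2.45% in B cells. With 1 library per group, anything common to all cells of the double KO library cannot be told apart from its genotype.

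**Figure D4:**
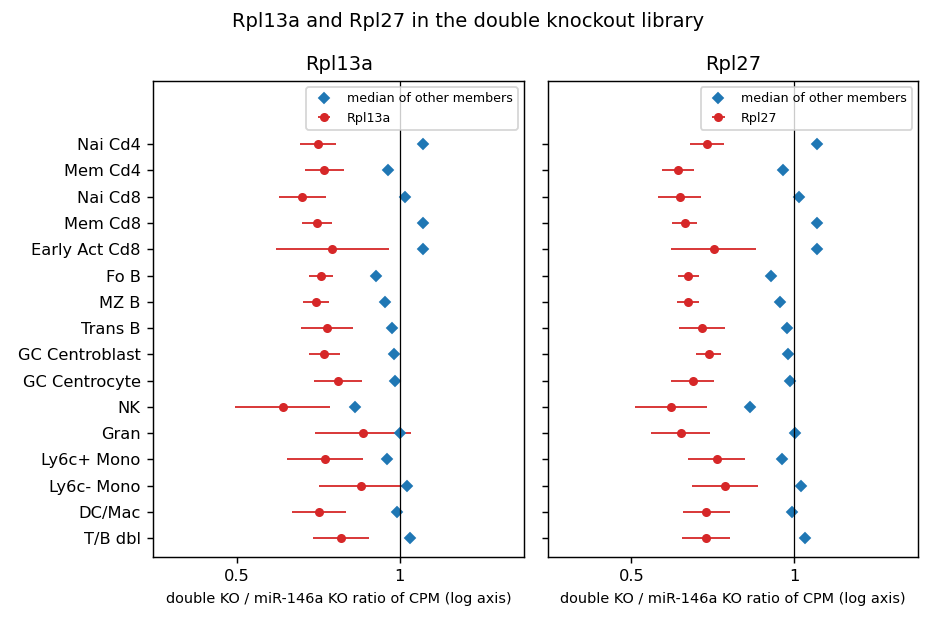
Ratio of CPM between the double KO and KO libraries (horizontal log axis) for Rpl13a (left) and Rpl27 (right) in each of 16 annotated types, with 95% counting intervals as bars, beside the median of the other ribosomal protein genes (diamonds). Both genes lie below 1 in all 16 types, while the diamonds lie from 0.828 in NK to 1.10 in naive CD4 and Early Act Cd8 cells.

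The stalk and the 5S particle are parts of the large subunit with known separate roles. Rplp0, Rplp1 and Rplp2 form the stalk that recruits elongation factors. In T cells of the 4 libraries, in the order above, Rplp0 was at 9006, 7585, 6085 and 7247 CPM, Rplp1 at 5901, 5112, 4410 and 4870 CPM and Rplp2 at 5573, 5152, 4628 and 4867 CPM. In B cells Rplp0 was at 4940, 5020, 5756 and 5571 CPM. Rpl5 and Rpl11, which with 5S rRNA can bind Mdm2 and so hold back p53 degradation, were at 1871, 1614, 1320 and 1519 CPM and at 4353, 3869, 3594 and 3748 CPM in T cells. All 5 were highest in young WT and lowest in KO T cells, and none was called in T or B cells in any of the 3 comparisons.

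The make-up of the group was similar across types for most genes. Each gene's share of the ribosomal protein UMIs was taken in 13 types with at least 20 cells in every library, as the median over the 4 libraries, which leaves out differences in the total. The highest and lowest types named below are those of this median, and in single libraries another type can lie beyond them. For the 77 genes with at least 50 UMIs in each of these types and libraries, the range between the highest and lowest type had a median of 0.46 on the log2 scale; 43 of 77 ranged less than 0.5 and 4 more than 1. These were Rpl12, Rpl10, Rps27 and Rpl28, followed by Rps19, Rps27a, Rps20 and Rps9. They were picked by their range in these cells and by the types these cells define, so they are described and not tested.

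Rpl12, a protein at the base of the stalk, had the widest range. It made up 0.856%, 0.850%, 0.769% and 0.869% of ribosomal protein UMIs in naive CD4 cells of the young WT, aged WT, KO and double KO libraries and 0.361%, 0.286%, 0.364% and 0.358% in Ly6c+ Mono. Rpl10, a large-subunit protein that joins late in assembly, had the opposite order: 0.978%, 1.01%, 1.03% and 0.953% in naive CD8 cells and 2.03%, 2.37%, 2.23% and 2.10% in Ly6c+ Mono. In neither gene did the libraries of the 2 types overlap, but these types were picked as its extremes in the same libraries, so this is no further support.

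Rps27 was highest in Fo B cells, at 4.17%, 4.17%, 4.62% and 4.59%, and lowest by the median in Ly6c+ Mono, at 2.37%, 2.21%, 1.99% and 1.87%; in both WT libraries GC Centrocyte cells were lower still (2.04% and 1.95%). Rpl28 was highest in GC Centrocyte cells, at 0.862%, 0.887%, 1.02% and 0.963%, and lowest in memory CD8 cells, at 0.530%, 0.461%, 0.454% and 0.419%. Rps19 was lowest in NK cells (1.61% to 1.74%) and highest by the median in Ly6c- Mono (2.92% to 3.77%), though Fo B cells were higher in both WT libraries (2.96% and 3.15%). Rps27a, which is made as a fusion with ubiquitin, was lowest in Fo B (1.19% to 1.26%) and highest in Ly6c- Mono (2.16% to 2.67%). Rps20 was highest in GC Centrocyte (1.18% to 1.28%) and lowest by the median in Ly6c+ Mono (0.593% to 0.824%), though Ly6c- Mono was lower in both knockout libraries (0.739% and 0.709%). Rps9 was highest in Ly6c+ Mono (2.22% to 2.35%) and lowest in naive CD8 cells (1.30% to 1.38%). By the median, monocytes were at 1 end of the range for 7 of these 8 genes. Monocytes were also at 1 end for many other genes of the group, such as Rpl3 and Rpl14, so this does not set the 8 apart.

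**Figure D5:**
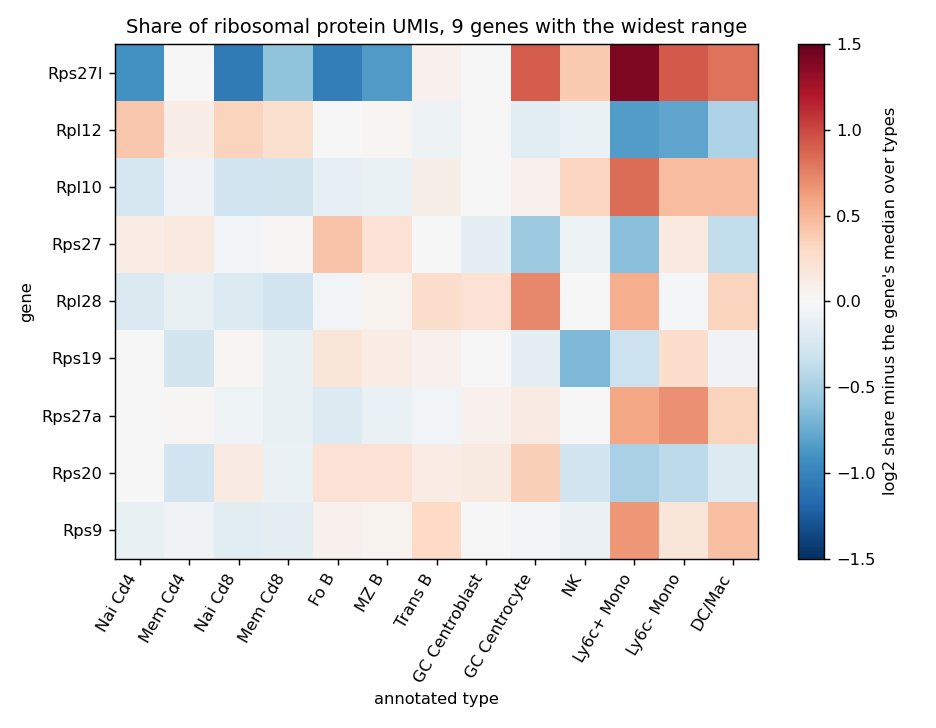
Each gene's log2 share of ribosomal protein UMIs (median over 4 libraries) minus its own median over types, for the 9 genes with the widest range among those with at least 50 UMIs in each type summed over libraries (rows) in 13 types (columns); red is above and blue below the gene's median. Rps27l and Rpl10 are red and Rpl12 and Rps27 blue in Ly6c+ Mono.

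Several genes of the group are near-copies of another, and reads shared by such pairs may be counted uncertainly. Rps27l, a variant of Rps27 known as a p53 target, ranged most, at 2.46 on the log2 scale. Of the UMIs of the pair, Rps27l held 0.982%, 1.11%, 0.824% and 0.938% in Fo B cells of the young WT, aged WT, KO and double KO libraries. It held 6.66%, 7.57%, 6.75% and 6.50% in GC Centrocyte cells and 7.83%, 7.84%, 11.8% and 13.0% in Ly6c+ Mono. The exact intervals of Ly6c+ Mono did not overlap between the WT libraries (upper bounds 9.41% and 9.19%) and the knockout libraries (lower bounds 10.5% and 11.8%). They hold counting error alone, from 53, 76, 78 and 106 cells of 1 library each, so a difference between genotypes was not tested. Summed granulocyte markers in these cells were 62.8, 91.3, 2441 and 4254 CPM, and their part was not tested. Rps27l held 1.16% to 1.47% in naive T cells. Transcripts per gene were not compared within the pair, since UMIs are not scaled to length.

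Rpl22l1, the variant of Rpl22, differed less between these types, with 52.9% to 61.2% in naive T cells, 48.8% to 51.9% in Fo B cells and 42.3% to 47.1% in Ly6c+ Mono. Rpl7l1, a nucleolar relative of Rpl7, held 1.52% to 2.60% in naive CD8 cells, 3.22% to 3.87% in memory CD4 and 3.92% to 4.90% in GC Centroblast cells. Rpl39l and Rpl10l, known mainly from the testis, had 93 and 0 UMIs over all barcodes.

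Rpl3l, the variant of Rpl3 known from skeletal and heart muscle, was found mainly in Ly6c- Mono. In that type 53 UMIs came from 46 of 475 cells, against 25 UMIs from 25 of 23668 other annotated cells. By library it was found in 5 of 27 (18.5%), 5 of 55 (9.09%), 23 of 186 (12.4%) and 13 of 207 (6.28%) of the Ly6c- Mono cells of young WT, aged WT, KO and double KO. Their exact intervals were 6.30% to 38.1%, 3.02% to 19.95%, 8.0% to 18.0% and 3.39% to 10.5%, so the libraries could not be told apart at this depth. Fo B cells had 0 UMIs in every library at similar depth (median UMIs 1678 to 2296 against 1659 to 2300 in Ly6c- Mono); 0 of 1775 aged WT Fo B cells allows a share of cells with a UMI of up to 0.169% (3 counts), which is no limit on cells that express the gene. The Ly6c+ Mono had 1, 0, 1 and 4 cells with a UMI at a higher depth. Granulocytes had 7 of 293 and 6 of 461 cells with a UMI in the knockout libraries.

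Genes that build or serve the ribosome were counted by list in the same way. In T cells of the KO against aged WT, 8 of 38 ribosome biogenesis genes (factors that make and process rRNA) were called lower and 0 higher, against 5.86% and 12.0% of all genes, with a median log2 ratio of -0.19 against 0.05 over all genes. They were Fbl (199 CPM in aged WT and 156 in KO), Dkc1 (78.7 and 50.2), Wdr43 (88.3 and 68.4), Pes1 (43.4 and 29.4), Rrp9 (42.3 and 28.6), Nop16, Bysl and Polr1a. The calls pool all T types and were not repeated with the aged WT mix or at matched depth. The list's share of UMIs in aged WT and KO was 0.374% and 0.304% in naive CD4 and 0.324% and 0.306% in memory CD4 cells. It was 0.466% and 0.423% in naive CD8 and 0.399% and 0.349% in memory CD8 cells. In the double KO against KO, 4 of 38 were called higher (Dkc1, Rrp9, Bysl and Mrto4) and 0 lower, against 3.86% and 8.29% of all genes. Myc, the transcription factor known to drive ribosome synthesis, was at 45.8, 40.3, 23.1 and 35.9 CPM in T cells of the young WT, aged WT, KO and double KO libraries; the KO ratio was 0.572 (0.440 to 0.739) against aged WT. In B cells Myc was at 33.9, 29.9, 30.03 and 28.1 CPM. The KO library was thus lowest for Myc in the T class, whose mix of types differed between libraries. Myc is 1 of 14 listed regulators of ribosome synthesis. In T cells of the KO against aged WT, 1 of 12 tested was called lower (5.86% of all genes) and 0 higher (12.0%), with a median log2 ratio of -0.05. In the double KO against KO, 1 of 13 was called higher (3.86%) and 1 lower (8.29%), with ratios from 0.718 (Larp1) to 1.56 (Myc). With age, 2 of 13 were called higher (16.1%) and 0 lower (4.33%). The part of Myc in the ribosomal protein share was not tested.

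Other lists were counted in the same way. None of 30 initiation factors and none of 7 elongation factors was called in T or B cells in any of the 3 comparisons. Of all genes, 3.86% to 16.1% were called higher and 4.33% to 8.29% lower in T cells. In B cells 3.05% to 7.22% were called higher and 2.45% to 7.91% lower. The median log2 ratio of the elongation factors in T cells was -0.09 with age, -0.10 in the KO and 0.09 in the double KO. Of 78 mitochondrial ribosomal protein genes, 77, 76 and 77 were tested in T cells in the 3 comparisons, with 2, 4 and 5 called higher (16.1%, 12.0% and 3.86% of all genes) and 2, 3 and 1 called lower (4.33%, 5.86% and 8.29%). Their share of UMIs was 0.501% to 0.525% in naive CD4 cells of the 4 libraries, where that of the cytosolic ribosomal proteins went from 38.5% to 30.3%. Of 7 other TOP mRNAs and snoRNA host genes tested in T cells, 1 was called lower with age (Snhg6, ratio 0.778), against 4.33% of all genes. In the KO 1 was called higher (Hnrnpa1, 1.33), against 12.0% of all genes. Of 4 ribosomal proteins outside the naming rule, 2 were called lower in the double KO against the KO in T and in B cells, Rpl36al among them. The shares of all genes called lower there were 8.29% and 2.45%. Fau (ratios of 0.944 and 0.907) and Rack1 (1.09 and 0.934) were not called.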

How the data were processed

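Raw UMI counts per gene and barcode (unit: count) were deposited by the authors, made with Cell Ranger 3.0.0 on mm10 per the submitters' processing notes, with no further normalization recorded. The labels' protocols name both 3' and 5' chemistry. The cell type names (unit: other, 16 names) were also deposited by the authors; the sources used here do not give the method of naming. Cells with a name had 501 to 9001 UMIs; barcodes without a name were left out, and no doublet caller was run (cells named T/B dbl entered no class).

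UMIs were summed per library and type, and per class: T (5 types), B (5) and myeloid (4). Shares have exact Clopper-Pearson and ratios of shares Katz intervals; ratios of CPM have conditional binomial intervals, all at 95% and for counting error only. With 1 library per group no test was run; a gene is called at a ratio of at most 0.8 or at least 25% above 1, with an interval that excludes 1, from 50 UMIs over both libraries, and the share of all genes called is the background. Named genes were up to 5 called genes per direction, class and comparison, the 8 with the widest range across types, the 5 with most UMIs, the variants with their counterparts, the stalk and 5S genes and the extremes of each list. Other called genes were named after their values were seen, and most carry no remark to that effect. The members and lists were chosen with earlier results of these data known. Interval and call code was tested on simulated counts. Alternatives were the weighting of cells, the type mix, cells of 1000 to 3000 UMIs, the denominator, the gene list, shared barcodes, TMM scaling (edgeR 4.0.16, R 4.3.3), the minimum count and 1.5-fold. Python 3.11.15, numpy 2.4.6, scipy 1.17.1 and pandas 2.3.3 were used. Promoter letters are from RefSeq (GRCm38.p6). Some items are not reported here.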

Additional observations from a re-analysis of the deposited data

Results flagged for a closer look

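T and B cells moved in opposite directions under the same comparison. In the KO against aged WT, the log2 ratio of the ribosomal protein share was -0.20 in T and 0.13 in B cells. In the double KO against the KO it was 0.13 in T and -0.093 in B cells, and the KO library is shared by both comparisons. With age it was -0.19 in T and 0.0063 in B cells, where the B value changed sign with the mix of types. Each class is 1 library per group, so the difference between T and B cells was not tested.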

How the results depend on the processing

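The log2 ratios of the ribosomal protein share are given in the order aged WT over young WT, KO over aged WT and double KO over KO. As reported they were -0.19, -0.20 and 0.13 in T, 0.0063, 0.13 and -0.093 in B, and -0.088, -0.54 and -0.19 in myeloid cells. As a mean over cells they were -0.26, -0.19 and 0.13 in T, 0.0065, 0.14 and -0.099 in B, and -0.034, -0.48 and -0.20 in myeloid cells. The aged WT mix left out types with under 20 cells in any library, which were Early Act Cd8 and granulocytes. With this mix the log2 ratios were -0.18, -0.10 and 0.076 in T, -0.0053, 0.17 and -0.11 in B, and -0.021, -0.019 and -0.026 in myeloid cells. The B cell value with age thus changed sign. In cells of 1000 to 3000 UMIs they were -0.35, -0.15 and 0.15 in T, 0.017, 0.11 and -0.063 in B, and -0.033, -0.35 and -0.29 in myeloid cells. Without mitochondrial, immunoglobulin and T cell receptor UMIs they were -0.18, -0.21 and 0.13 in T, 0.011, 0.12 and -0.088 in B, and -0.088, -0.55 and -0.19 in myeloid cells. With the other ribosomal proteins and pseudogenes added they were -0.18, -0.20 and 0.12 in T, 0.0068, 0.13 and -0.096 in B, and -0.087, -0.54 and -0.20 in myeloid cells. Without the 10 most abundant genes they were -0.18, -0.20 and 0.12 in T and 0.0034, 0.13 and -0.10 in B cells. Without cells that share a barcode they were -0.19, -0.21 and 0.13 in T, 0.0046, 0.13 and -0.095 in B, and -0.093, -0.54 and -0.18 in myeloid cells. An alternative chosen after seeing the data left out cells with a UMI of the other lineage's markers and gave -0.21, -0.21 and 0.15 in T and 0.011, 0.14 and -0.096 in B cells.

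Counts of called genes depended more on the settings. The 4 genes lower in aged T cells became 29 with TMM scaling, 41 in cells of 1000 to 3000 UMIs, and 0 relative to the ribosomal protein total or at 1.5-fold. The 8 lower in KO T cells became 24 with TMM scaling, 1 with the aged WT mix of types, 2 in cells of 1000 to 3000 UMIs, and 0 relative to the ribosomal protein total or at 1.5-fold; relative to that total 1 was higher. In double KO over KO T cells, 1 was higher with TMM scaling, 1 with the aged WT mix and 4 in cells of 1000 to 3000 UMIs. Of all genes, 5.11%, 3.69% and 3.58% were called higher in these settings. At 1.5-fold 1 was lower in each of the T and B classes. In KO B cells 2 were higher with the aged WT mix and 1 in cells of 1000 to 3000 UMIs, against 4.71% and 4.81% of all genes. With no minimum count 1 was higher. The share of all genes was not taken for 1.5-fold, for no minimum count or relative to the ribosomal protein total. The causes were not tested.

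By type, the sign of the log2 ratio was kept in 24 of 29 values in cells of 1000 to 3000 UMIs, and in 35 of 41 as a mean over cells. Of the ratios whose counting interval did not hold 0, those that changed sign with age were -0.043 in naive CD8 cells (1000 to 3000 UMIs), 0.0016 (mean over cells) and 0.0505 (1000 to 3000 UMIs) in GC Centroblast cells and 0.032 in Ly6c- Mono (mean over cells). In the double KO over the KO, Ly6c- Mono gave -0.033 as a mean over cells and -0.071 in cells of 1000 to 3000 UMIs. No paired analysis was possible because each group is 1 library. A difference between libraries of pooled mice cannot be told apart from a difference between preparations, at any depth. Types with under 100 cells, such as NK and Ly6c- Mono in some libraries, rest on few cells, and the counting intervals do not cover that.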

Other observations

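Barcodes without a deposited type name gave ribosomal protein shares of 21.6%, 18.7%, 20.8% and 19.1% in the young WT, aged WT, KO and double KO libraries, below the 32.9%, 29.9%, 27.6% and 26.7% of the annotated cells of the same libraries. Cells named T/B dbl gave 34.3%, 29.1%, 25.5% and 26.9%, with immunoglobulin shares of 1.69%, 7.46%, 10.4% and 8.66% of their UMIs. Ribosome biogenesis genes held most UMIs in Early Act Cd8 (0.859% to 0.966%) and GC Centroblast cells (0.560% to 0.721%), types whose cytosolic ribosomal protein shares were below that of naive CD8 cells in the same libraries, where biogenesis genes held 0.423% to 0.466%.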
